A study of Mus musculus with 13 samples.

Results

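Fam83h, Fam20a, Fam20c, Acp4, Wdr72 and Relt are 6 genes in which inherited variants are known to cause amelogenesis imperfecta, a defect of tooth enamel, alone or within a syndrome, and whose proteins act in phosphorylation, secretion, vesicle traffic or signalling at membranes. They were taken by gene symbol from the deposited count table, where each of the 6 matched 1 of 48709 Ensembl mouse genes, and all 6 were among the 16328 genes that passed the filter on low counts. RNA was sequenced in bulk from the enamel organ, the epithelium covering a growing tooth, of the lower incisors at postnatal day 11. Het libraries (n = 5) came from mice carrying 1 copy of Tgfbr2 with the substitution G357W, a model of Loeys-Dietz syndrome type II (group name LDSR2), and WT libraries (n = 8) came from Tgfbr2-+/+ littermates. No tissue-restricted driver is named in the labels, so the allele is taken to be in every tissue of the Het mice. The comparison asks how a changed receptor for TGF-beta alters the RNA of the tissue that makes enamel. Each library was taken as 1 mouse, and p-values set the difference between groups against the spread between these libraries.

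Enamel is laid down by ameloblasts in a secretory stage, in which matrix proteins leave the cell through the Golgi apparatus, and is hardened in a maturation stage, in which the cell takes up matrix fragments and moves ions. The mouse incisor grows throughout life, so an enamel organ holds cells of both stages at once. FAM20C is the Golgi kinase that phosphorylates secreted proteins, enamel matrix proteins among them, and FAM20A is a pseudokinase that binds FAM20C and raises its activity. WDR72 is a cytoplasmic protein of vesicle traffic needed for uptake of matrix in maturation ameloblasts. ACP4 is a transmembrane acid phosphatase, RELT is a receptor of the tumour necrosis factor receptor superfamily, and FAM83H is an intracellular protein that binds casein kinase 1 and influences keratin filaments.

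Total counts were 20266079 to 26122340 per Het library and 18852382 to 26508410 per WT library. The libraries carry a number prefix (1, 4 or 5) of unstated meaning in their column names, with 1 Het and 3 WT libraries in prefix 1, 2 and 3 in prefix 4, and 2 and 2 in prefix 5. Libraries are named here by that number pair, as in Het 4-2. Markers of ameloblasts were abundant, as the tissue label implies. Ambn, the matrix protein ameloblastin, lay at 156000 to 238100 CPM (counts scaled to library size) in Het and 124700 to 251000 CPM in WT. Markers of neighbouring tissue were present as well: 6 fibroblast and mesenchyme markers summed to 4399 to 9802 CPM in Het and 5366 to 11800 CPM in WT, and 7 osteoblast and bone markers, Col1a1 in both lists, to 2629 to 5402 CPM in Het and 3127 to 7546 CPM in WT. The 6 skeletal muscle markers summed to 8.67 to 65.5 CPM in Het and 6.46 to 163.9 CPM in WT, and 6 salivary markers summed to at most 0.176 CPM in Het and 0.294 CPM in WT. Tgfbr2 lay at 62.9 to 86.9 CPM in Het and 52.0 to 76.5 CPM in WT. The substitution does not remove the transcript, so this level does not test the genotype labels.

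The 6 genes spanned a wide range of levels, compared per length as CPM per kilobase of merged exons. Acp4 stood highest, at 269 ± 27.7 CPM per kb in Het and 298 ± 49.7 in WT (SD, n = 5 and 8), which ranked 69 among 16289 genes with a length. Fam20a followed at 18.3 ± 1.94 CPM per kb in Het and 16.9 ± 2.92 in WT, then Relt at 13.5 ± 1.25 in Het and 15.3 ± 2.89 in WT. Fam20c lay at 12.4 ± 1.86 CPM per kb in Het and 11.4 ± 1.39 in WT. Wdr72 lay at 4.05 ± 1.69 CPM per kb in Het and 4.41 ± 1.61 in WT. Fam83h stood lowest, at 1.77 ± 0.279 CPM per kb in Het and 1.62 ± 0.355 in WT. Acp4 exceeded Fam20a in all 13 libraries by 11.7-fold to 22.4-fold per length. Fam20c exceeded Wdr72, and Wdr72 exceeded Fam83h, in 13 of 13 libraries. The middle genes were close together: Fam20a exceeded Relt in 12 of 13 libraries and Relt exceeded Fam20c in 11 of 13, so these neighbours were not separated in every mouse.

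**Figure D1:**
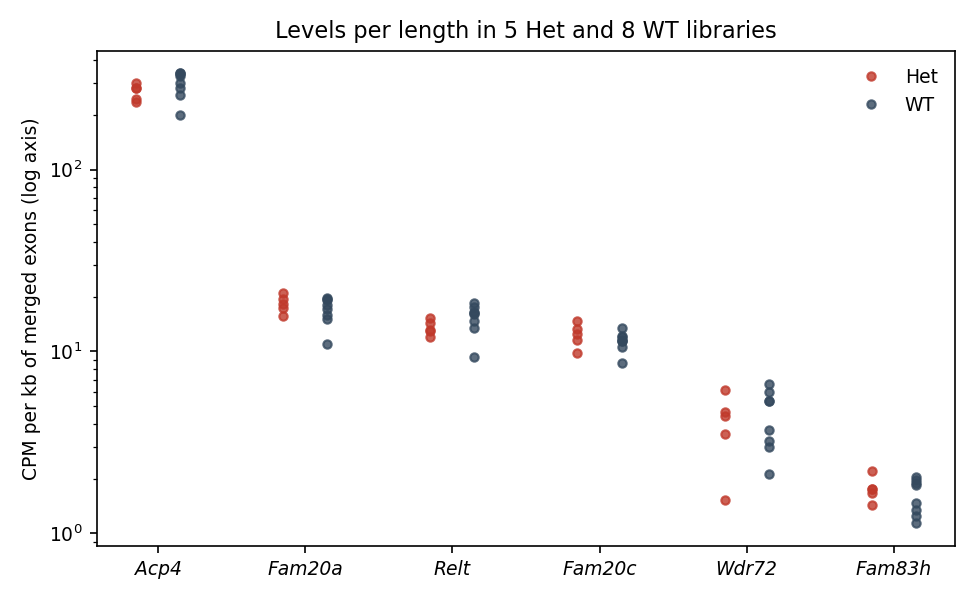
Level per length of the 6 genes, in CPM per kilobase of merged exons on a log axis, with Het libraries left of WT libraries for each gene; points are libraries. Acp4 stands at least 11.7-fold above Fam20a in every library, and Fam83h is lowest.

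Levels of the 6 genes in Het lay near those in WT, with fitted ratios between 0.882 and 1.09. None of the 6 genes passed edgeR's quasi-likelihood test between Het and WT at an adjusted p of 0.05. Over all 16328 genes, 14 passed, which is 0.0857% of the genes tested, with 7 (0.0429%) higher and 7 (0.0429%) lower in Het. At an unadjusted p under 0.05 the count for the 6 genes was also 0, against 6.90% of all genes, and DESeq2 and limma-voom called 0 of the 6 as well. Of the fold changes, 3 were positive and 3 negative, and their median on the log2 scale was -0.006 beside -0.004 for all genes tested. The intervals below show the sizes that each comparison leaves possible. In this bulk tissue, fewer cells of a type and less RNA per cell cannot be told apart.

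**Figure D2:**
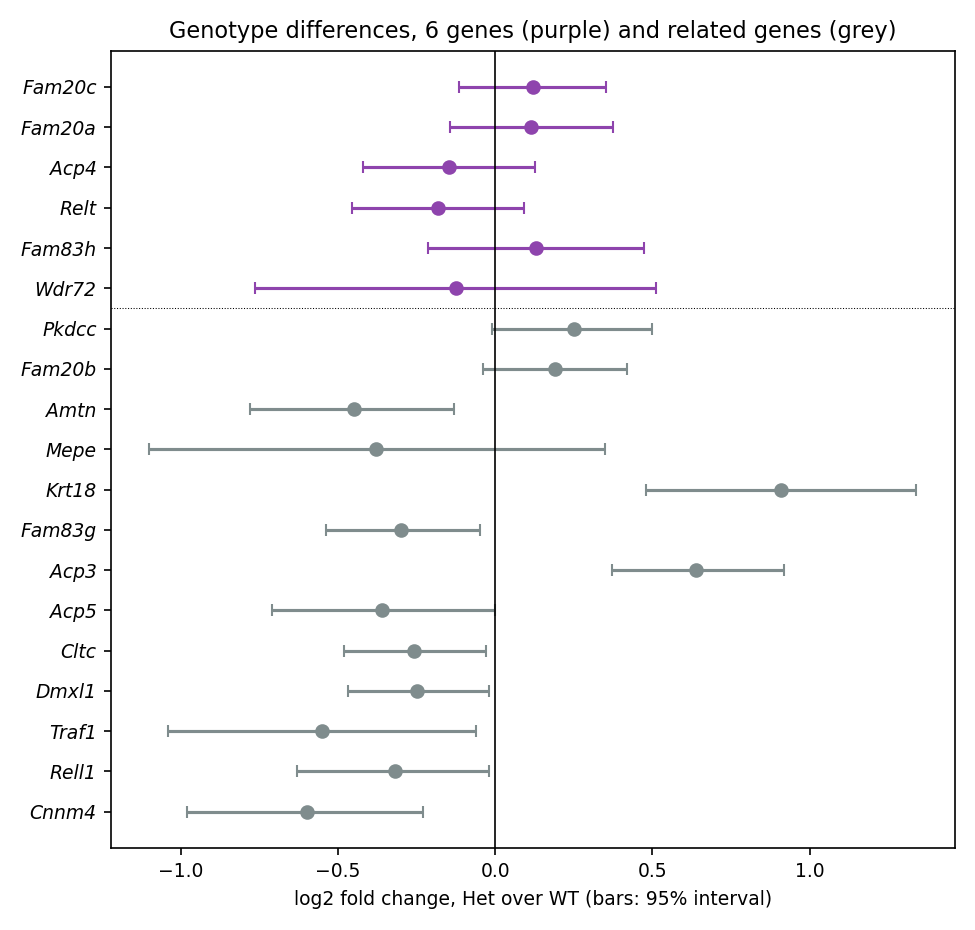
Log2 fold change, Het over WT, with its 95% interval from edgeR, for the 6 genes (purple, above the dotted line) and the related genes named further on (grey). The interval of each of the 6 includes 0, and the widest of them, for Wdr72, runs from -0.77 to 0.51.

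The kinase pair came first in the secretory route. Fam20c (ENSMUSG00000025854, chr5:138754514-138810077, plus strand, GRCm38) had 76.35, 82.0, 97.5, 64.8 and 88.1 CPM in the Het libraries 1-2, 4-2, 4-5, 5-5 and 5-6, against a lowest value of 57.2, a median of 75.8 and a highest of 88.7 CPM in WT. Het 4-5 was the highest of all 13 libraries and WT 4-3 the lowest, and the groups overlapped over most of their ranges. The log2 fold change was 0.12 ± 0.11 (SE), with a 95% interval of -0.11 to 0.35 and an adjusted p of 0.856 by edgeR, that is a ratio of 1.09 with an interval of 0.924 to 1.28. It was 0.06 without Het 4-5, 0.07 without WT 4-3 and 0.20 without Het 5-5 on the log2 scale.

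Its partner Fam20a (ENSMUSG00000020614, chr11:109669749-109722279, minus strand) had 57.25, 75.8, 70.5, 66.0 and 63.3 CPM in the same order of Het libraries, against 40.0, 64.0 and 71.9 CPM as the lowest, median and highest of WT. The lowest library was WT 4-4, which stood apart from the other WT libraries, and Het 4-2 was the highest. Het and WT differed by 0.11 ± 0.12 on the log2 scale (interval -0.14 to 0.37, adjusted p 0.880, edgeR). Without WT 4-4 the log2 fold change was 0.04, and without Het 4-2 it was 0.06. Within prefixes, the Het minus WT difference in mean log2 CPM was -0.20 in prefix 1, 0.41 in prefix 4 and 0.06 in prefix 5. For Fam20c it was -0.04, 0.34 and 0.01, so in both genes prefix 4 held the largest positive difference, and without prefix 4 both fold changes turned negative.

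Wdr72 (ENSMUSG00000044976, chr9:74110356-74283308, plus strand) had 34.6, 11.5, 33.0, 26.5 and 46.0 CPM in the Het libraries 1-2, 4-2, 4-5, 5-5 and 5-6, against 15.9, 33.8 and 49.6 CPM as the lowest, median and highest of WT. Het 4-2 was the lowest library and WT 5-1 the highest, and each group held both high and low mice. The log2 fold change was -0.13 ± 0.30, with an interval of -0.77 to 0.51 and an adjusted p of 0.953 by edgeR. Its sign rested on Het 4-2: without that library the log2 fold change was 0.08, and without Het 5-6 it was -0.33. The interval in ratios, 0.588 to 1.43, is wider than for the other 5 genes.

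Acp4 (ENSMUSG00000012777, chr7:44252148-44257378, minus strand) had 491, 425.5, 494, 412.5 and 525 CPM in the Het libraries, in the order given above. In WT the lowest, median and highest values were 348, 549 and 593 CPM. The Het libraries lay inside the WT range, 5 of 5 of them below the WT median, and WT 4-4 was the lowest of all 13. The log2 fold change was -0.15 ± 0.13 (interval -0.42 to 0.13, adjusted p 0.849, edgeR). The gene shares 172 exon bases with 2410002F23Rik on the other strand, and the libraries were not stranded, so reads in that stretch cannot be told apart. 2410002F23Rik lay at 136.1 to 156.2 CPM in Het and 143.3 to 171.4 CPM in WT.

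Relt (ENSMUSG00000008318, chr7:100845847-100863446, minus strand) had 42.8, 42.4, 47.0, 39.6 and 49.95 CPM in the Het libraries, in the same order. In WT the lowest, median and highest values were 30.7, 53.2 and 61.0 CPM. The Het values again fell inside the WT range and below its median in 5 of 5 libraries, and WT 4-4 was again lowest. The log2 fold change was -0.18 ± 0.13 (interval -0.46 to 0.09, adjusted p 0.811, edgeR), and without WT 4-4 it was -0.26.

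Fam83h (ENSMUSG00000046761, chr15:76001093-76014336, minus strand) had 8.13, 6.66, 10.2, 7.76 and 8.13 CPM in the Het libraries, against 5.26, 7.63 and 9.43 CPM as the lowest, median and highest of WT. Het 4-5 was highest and WT 5-3 lowest, with the groups otherwise mixed. The log2 fold change was 0.13 ± 0.16 (interval -0.21 to 0.47, adjusted p 0.896, edgeR), and it was 0.04 without Het 4-5, 0.07 without WT 5-3 and 0.08 without WT 4-4. These levels rested on 123 to 290 counts per library, the fewest of the 6 genes, against 8553 to 15195 for Acp4. Fam83h overlaps K230010J24Rik on the other strand but shares 0 exon bases with it.

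Exact two-sided permutation tests of log2 CPM over 1287 assignments of genotype gave p-values of 0.317 for Relt, 0.332 for Acp4, 0.333 for Fam20c, 0.398 for Fam83h, 0.406 for Fam20a and 0.669 for Wdr72, where the smallest p the design allows is 0.000777. Ranges of the 2 groups overlapped for 6 of 6 genes, and 0.490% of all genes tested had ranges apart. Library prefix was associated with 992 genes (6.08%) by edgeR, none of them among these 6, whose adjusted p for prefix ran from 0.474 for Wdr72 to 0.977 for Fam20a. The interaction of genotype with prefix called 0 genes (0.00%) by edgeR, with 331 at an unadjusted p under 0.05.

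**Figure D3:**
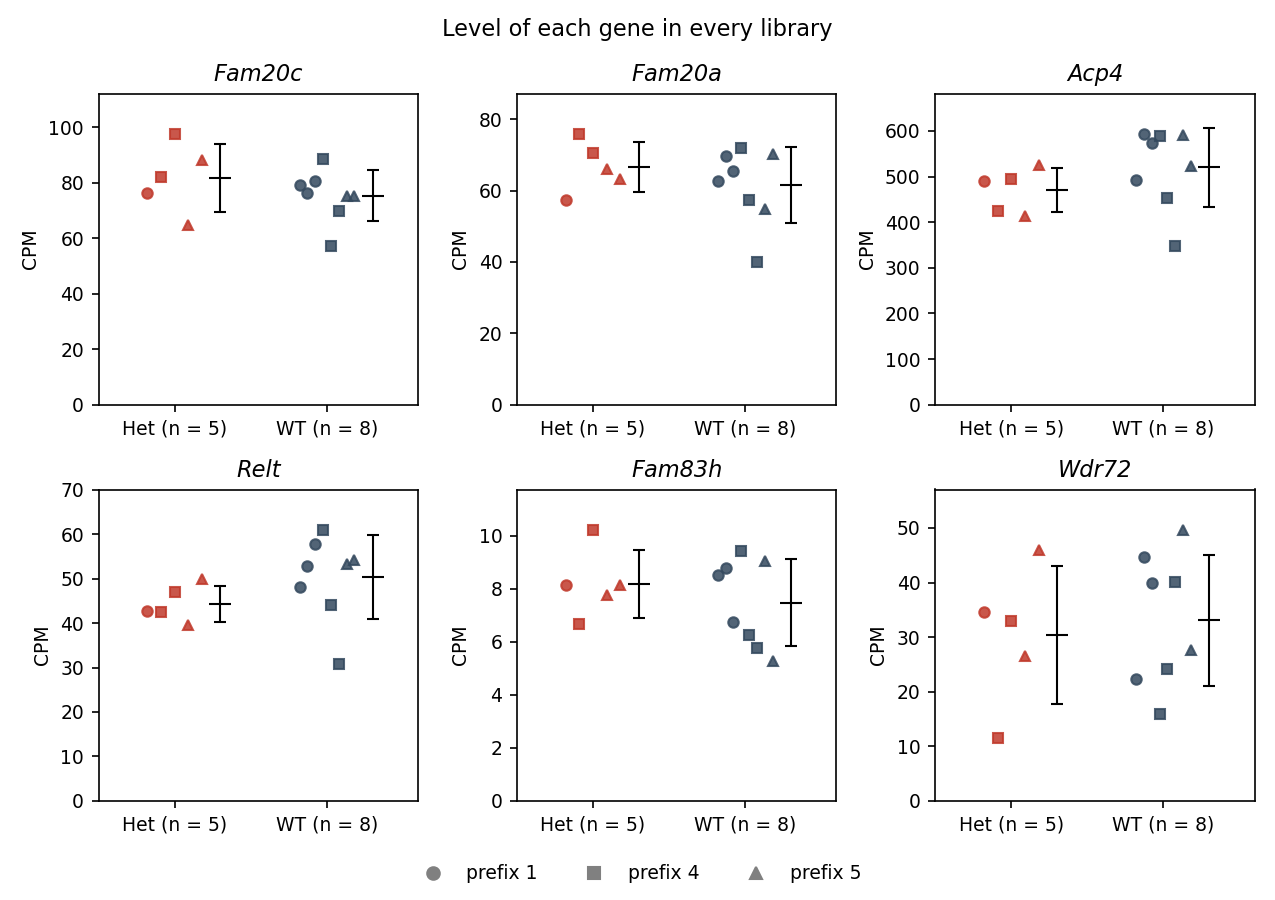
CPM of the 6 genes in each library, 1 panel per gene, with Het left of WT, the group mean ± SD beside the points, and symbols for the library prefix; the vertical axes start at 0. The groups overlap in every panel, Wdr72 has the widest scatter, and WT 4-4 is the low point in Fam20a, Acp4 and Relt.

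The genes differed in how much they varied between mice. Wdr72 had an SD of 0.625 in log2 CPM over the 13 libraries, a 4.33-fold range, and this exceeded 99.6% of the 4418 genes within 1 log2 unit of its level. The other 5 were ordinary for their levels: the SD was 0.288 for Fam83h, 0.262 for Relt, 0.240 for Fam20a, 0.232 for Acp4 and 0.199 for Fam20c, above 41.6% to 75.8% of genes of like level.

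**Figure D4:**
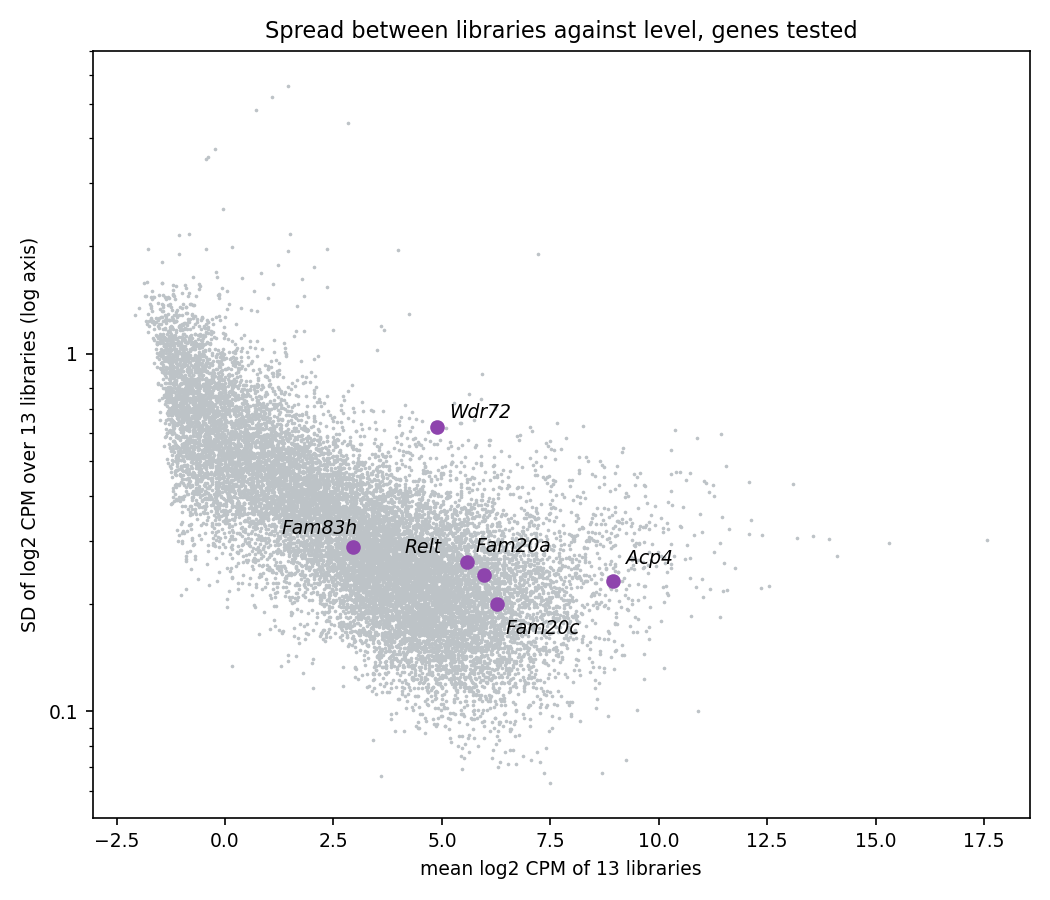
SD of log2 CPM over 13 libraries (log axis) against mean log2 CPM, for all genes tested in grey and the 6 genes in purple. Wdr72, with an SD of 0.625, stands above nearly all genes of its level, while the other 5 lie within the cloud.

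Other genes followed Wdr72 from library to library. By the rule of likeness, the 3 genes with the highest Pearson correlation to each of the 6 were taken over 13 libraries of log2 CPM centred within prefix, which share library depth and preparation. For Wdr72 they were Stk32a, which encodes a serine/threonine kinase, with r = 0.97, Slc6a14, an amino acid transporter, with r = 0.95, and Exoc6b, a subunit of the exocyst that tethers vesicles, with r = 0.92. Stk32a lay at 4.68 to 16.1 CPM in Het and 6.68 to 21.3 CPM in WT, and Slc6a14 at 8.22 to 32.4 CPM in Het and 12.0 to 37.1 CPM in WT. Both had their lowest value in Het 4-2 and their highest in WT 5-1, as Wdr72 did. Exoc6b had the same lowest and highest libraries but a far smaller range, 1.345-fold against 4.33-fold for Wdr72. It lay at 30.9 to 40.9 CPM in Het and 32.5 to 41.55 CPM in WT, and without centring its r was 0.81. Without Het 4-2 and WT 4-1, r was 0.95 for Stk32a and 0.93 for Slc6a14. This trio is the highest of 8459 genes, so its r values are high in part by selection. With Wdr72, 4 genes had an r of at least 0.9, against 0 (Acp4) to 5 (Fam20c) for the other members. The summed level of 8 maturation ameloblast markers, most of it Odam (26060 of 26960 CPM in Het 4-2), was also lowest in Het 4-2. Like Wdr72, it was highest in WT 5-1, and Het 5-6 was high in both, at 46.0 CPM for Wdr72 and 52000 CPM for the sum. In some other libraries the sum and Wdr72 differed in order. WT 4-1, second lowest in Wdr72, sat at the median sum of 43120 CPM. Het 4-5, with Wdr72 at 33.0 CPM, was second lowest in the sum at 33000 CPM. At the top of the sum, WT 5-1 (55350 CPM) and WT 4-4 (55240 CPM) were nearly level. The maturation genes Klk4 and Amtn were also lowest in Het 4-2, at 112.4 and 554.7 CPM, and were highest in WT 4-3, at 205.6 and 1342 CPM. The part of these genes in the spread of Wdr72 was not tested.

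Acp4 and Relt kept a nearly fixed ratio across mice. Acp4 CPM divided by Relt CPM lay between 9.66 and 11.5 in all 13 libraries, with a median of 10.4 and an SD of 0.085 on the log2 scale, and a ratio of 2 genes does not depend on library scaling. Of 8459 other genes whose log2 CPM averaged 3 or more, 0 had a smaller SD of the ratio to Acp4. The nearest was Map3k4 at 0.118, and the median gene was at 0.309. To Relt the count was also 0, with Map3k4 at 0.127 and a median of 0.334. The prefix-centred correlation was 0.95 over 13 libraries and 0.93 without WT 4-4, where both genes were lowest. The genes lie 56.6 Mb apart on chromosome 7. This pair was picked out after its values were seen, so its ratio is a description.

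**Figure D5:**
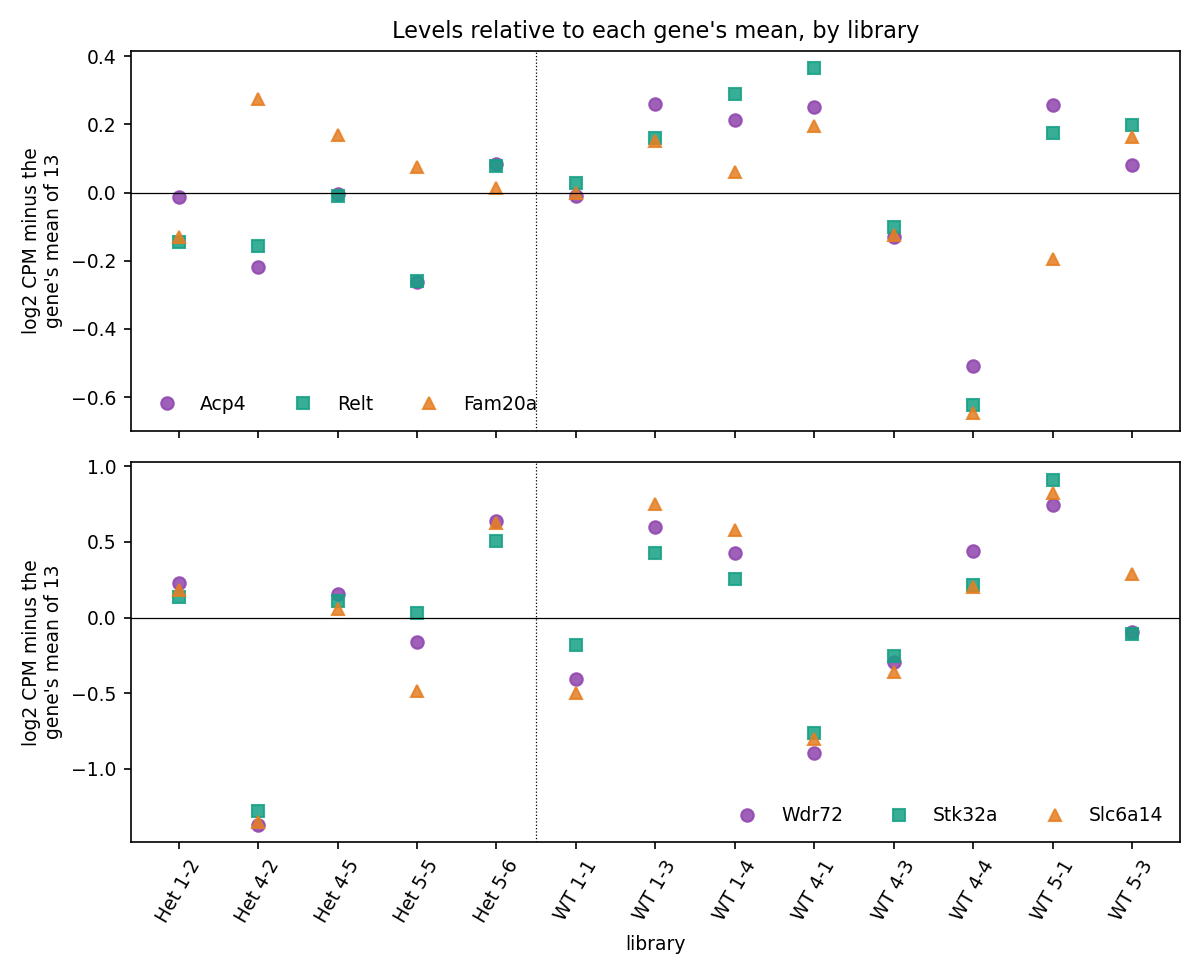
Log2 CPM of each gene minus its own mean over 13 libraries, with Het libraries left of WT libraries. In the upper panel Acp4 and Relt move together and, with Fam20a, drop in WT 4-4; in the lower panel Wdr72, Stk32a and Slc6a14 are lowest in Het 4-2 and highest in WT 5-1.

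The other pairs among the 6 were less alike. Fam20a with Relt had r = 0.65, Fam83h with Fam20c 0.55, Fam20a with Acp4 0.51 and Fam20a with Fam20c, the kinase pair, 0.46, while Fam20a with Wdr72 had r = -0.61 and Acp4 with Wdr72 0.03. The summed level of 4 secretory ameloblast markers was lowest in WT 4-4, the library in which Fam20a, Acp4 and Relt were also lowest. It was 145400 CPM there, against 191900 CPM in WT 1-1, the next lowest. WT 4-4 was also the highest of the 13 libraries in fibroblast and mesenchyme markers (11800 CPM) and in osteoclast markers (421.2 CPM), and second highest in osteoblast and bone markers (6368 CPM). The part of these in its low values was not tested.

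The nearest genes to the other members were, by the same rule, Lrwd1 (r = 0.91), Pitpnb (0.91) and Alpl (0.90) for Fam83h, and Slc26a2 (0.91), P4ha2 (0.90) and Chd6 (0.90) for Fam20a. Alpl is the tissue-nonspecific alkaline phosphatase of mineralising tissue, and Slc26a2 is a sulfate transporter. For Fam20c they were Ddost (0.94), Dolpp1 (0.93) and Baz2a (0.92). Ddost encodes a subunit of the oligosaccharyltransferase of the endoplasmic reticulum, and Dolpp1 a phosphatase of dolichol diphosphate, so both have roles in N-glycosylation. Each trio in this paragraph is the highest of 8459 genes, so its r values are high in part by selection. Without centring within prefix, they ran from 0.70 for Alpl to 0.90 for Slc26a2. Any link between these genes' functions and the likeness was not tested. For Acp4 they were Slc35c2, Riox2 and Map3k4 (0.90 each), and for Relt Chst1 (0.92), Aplp1 (0.92) and Lamb3 (0.91), a laminin chain in which variants also cause amelogenesis imperfecta.

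Since Acp4 and Relt moved together, their promoters are shown, from RefSeq (GRCm38.p6) as 250 bases before to 50 after the RefSeq start, 5′ to 3′ on the gene's strand, with matches to the SMAD box (CAGAC or its reverse complement GTCTG), the element that SMAD proteins of TGF-beta signalling bind, in capitals. The Acp4 window is chr7:44257155-44257454 and the Relt window chr7:100863364-100863663, both on the minus strand, and both RefSeq starts lie inside the GENCODE gene.
Acp4: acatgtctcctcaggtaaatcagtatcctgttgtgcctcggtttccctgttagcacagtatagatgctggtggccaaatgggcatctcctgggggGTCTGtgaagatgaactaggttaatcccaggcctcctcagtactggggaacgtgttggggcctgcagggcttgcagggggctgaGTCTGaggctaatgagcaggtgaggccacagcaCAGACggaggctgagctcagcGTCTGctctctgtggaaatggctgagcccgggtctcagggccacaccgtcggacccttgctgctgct
Relt: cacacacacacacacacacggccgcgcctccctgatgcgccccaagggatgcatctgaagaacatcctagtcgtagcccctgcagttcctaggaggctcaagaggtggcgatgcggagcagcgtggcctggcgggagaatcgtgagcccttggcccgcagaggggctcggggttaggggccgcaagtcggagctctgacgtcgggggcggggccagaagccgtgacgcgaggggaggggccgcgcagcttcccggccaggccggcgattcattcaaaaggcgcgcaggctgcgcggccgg

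The Acp4 window holds 4 SMAD boxes, with first bases at -155, -71, -38 and -17 from the RefSeq start. All 4 lie downstream of the GENCODE start of Acp4 (chr7:44257378), so inside the annotated gene. The Relt window holds 0, as do the windows of Fam20a and Fam20c. Of 27025 promoters of the same length, 49.7% hold at least 1 SMAD box and 0.862% hold at least 4. The Relt window has 1 cAMP response element (TGACGT, both strands) at -55, which 7.64% of promoters hold. Searches on both strands for a RUNX site (TGTGGT, in 16.9% of promoters), a homeodomain site (TAATTA, 5.31%) and a TATA box (TATAAA, 14.2%) found no match in these 4 windows, and an E-box (CANNTG, 72.1%) matched in each of the 4. GC content was 58% for Acp4 and 68.7% for Relt, against a median of 52.7% over promoters. A match is a run of letters in this window, not a bound site.

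Genes related to each of the 6 by family or pathway were taken from 7 lists of 6 to 29 genes, and edgeR called 0 in each. Over all genes tested, 6.90% had an unadjusted p under 0.05 by edgeR and 50.9% had a negative fold change. Dipk2a and Dipk2b of the kinase list matched no row, and Fgf23, Fam83a, Fam83c, Fam83e, Acp7, Erbb4, Rell2, Sp6 and Cldn16 fell under the filter on low counts. Secretory kinases related to Fam20a and Fam20c had 5 positive and 2 negative fold changes among 7 tested, with a median log2 fold change of 0.19 beside -0.004 for all genes, and 0 at an unadjusted p under 0.05. Pkdcc, a secreted tyrosine kinase, had a log2 fold change of 0.25 ± 0.12 (adjusted p 0.741, edgeR) and Fam20b, a xylose kinase of proteoglycan synthesis, 0.19 ± 0.11 (adjusted p 0.762). DESeq2 and limma-voom called 0 in this list. Among 9 tested secreted phosphoproteins of enamel, dentin and bone, several of them known substrates of FAM20C, 2 were positive and 7 negative (median -0.05), and 1 was under 0.05 unadjusted. Amtn, the maturation-stage protein amelotin, had -0.45 ± 0.15 (adjusted p 0.502) and Mepe, a mineral-binding phosphoprotein, -0.38 ± 0.34 (adjusted p 0.850). For Mepe the log2 fold change was -0.05 without WT 1-4, -0.25 without Het 4-5 and -0.58 without Het 4-2. DESeq2 and limma-voom called 0 there too.

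The FAM83, casein kinase 1 and keratin list around Fam83h had 8 positive and 3 negative among 11 tested, with a median of 0.08. Of these, 2 had an unadjusted p under 0.05 by edgeR, beside 6.90% of all genes. Krt18, a keratin of simple epithelia, had 0.91 ± 0.21 on the log2 scale with an adjusted p of 0.118 by edgeR. Its level was low, at 5.54 ± 1.48 CPM in Het and 2.94 ± 0.694 CPM in WT (SD), and the ranges of the groups overlapped. DESeq2 called it, with an adjusted p of 0.00926, and limma-voom called 0 in the list. DESeq2 was the only 1 of 25 alternatives in which Krt18 passed, and its adjusted p reached 0.969 among the others. Fam83g, a relative of Fam83h, had -0.30 ± 0.12 (adjusted p 0.635, edgeR).

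Of the acid phosphatases related to Acp4, 5 were tested, 3 with positive and 2 with negative fold changes (median 0.00). Among them 2 were under 0.05 unadjusted by edgeR, beside 6.90% of all genes. Acp3 (listed as Acpp, ENSMUSG00000032561, chr9:104288251-104337748, minus strand), the prostatic acid phosphatase, had 111, 107, 101, 104 and 104 CPM in Het, against 42.5 to 83.2 CPM in WT. The Het libraries were tight and all lay above the highest WT library. Ranges lay apart in this way for 0.490% of all genes tested. The log2 fold change was 0.64 ± 0.13 with an interval of 0.37 to 0.92 and an adjusted p of 0.0589 by edgeR, just outside the threshold. Over 25 alternatives its log2 fold change ran from 0.56 to 0.77 and its adjusted p from 0.00254 to 0.782, and it passed in 6. These were DESeq2 (0.00254), no filter on low counts (0.0253), a filter at 1 CPM (0.0469), a prefix term (0.046), and leaving out WT 4-4 (0.0313) or WT 5-1 (0.0434). It did not pass in the other 19, among them limma-voom (0.0655), which called 0 in this list. Nor did it pass without Het 1-2 (0.183), Het 4-2 (0.137), Het 4-5 (0.105), Het 5-5 (0.137) or Het 5-6 (0.123), by edgeR. Acp5, the phosphatase of osteoclasts, had -0.36 ± 0.17 (adjusted p 0.719, edgeR), and 6 osteoclast markers including it summed to 143.7 to 333.9 CPM in Het and 209.4 to 421.2 CPM in WT.

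For Wdr72, its relatives and clathrin uptake genes had 5 positive and 8 negative among 13 tested (median -0.01). Among them 2 were under 0.05 unadjusted by edgeR, beside 6.90% of all genes. Cltc, the clathrin heavy chain, had a log2 fold change of -0.26 ± 0.11 (adjusted p 0.675, edgeR) and Dmxl1, a regulator of the vacuolar proton pump, -0.25 ± 0.11 (adjusted p 0.685). The RELT family and partners had 2 positive and 3 negative among 5 tested (median -0.08), with 2 under 0.05 unadjusted: Traf1, an adaptor of tumour necrosis factor receptors, at -0.55 ± 0.23 (adjusted p 0.675) and Rell1, a RELT relative, at -0.32 ± 0.15 (adjusted p 0.706). DESeq2 and limma-voom called 0 in both lists.

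In the list of other amelogenesis imperfecta genes, 27 were tested, 8 with positive and 19 with negative fold changes, with a median of -0.15 on the log2 scale beside -0.004 for all genes, of which 50.9% were negative. In this list 5 were under 0.05 unadjusted by edgeR, beside 6.90% of all genes. Called genes numbered 0 by edgeR, DESeq2 and limma-voom. Cnnm4, a magnesium transporter of the basolateral membrane, had -0.60 ± 0.18 (adjusted p 0.347, edgeR), and Amtn is given above. The 8 maturation ameloblast markers, most of their sum Odam, summed to 26960 to 52000 CPM in Het (median 35500). In WT they summed to 39860 to 55350 CPM (median 44070). Klk4, Amtn, Odaph and Slc24a4 of this list are among those markers, so the signs in the list are not independent. The part of the marker level in these signs was not tested.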

How the data were processed

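Raw counts per gene, as deposited by the authors for 13 libraries, were the input of every test. STAR 2.5.2a and GRCm38 are named in the submitters' processing notes. The counter and the annotation it used are details not given in the sources used here. Per the labels' protocols, unstranded Nextera XT libraries were read as single reads. The authors also deposited a filtered count table, used as an alternative filter, and a normalized signal (CPM with TMM scaling, per its name), whose values for the 6 genes were 0.996 to 1.00 times those computed here. The 24 features that are not mouse genes took at most 0.000177% of counts and were left out. Columns name the genotype but no replicate of the labels, so each was assigned to its genotype only.

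Genes passing filterByExpr (count minimum 10) were tested with edgeR 4.0.16 in R 4.3.3 (TMM, glmQLFit robust, glmQLFTest), with Benjamini-Hochberg adjustment over all 16328. Standard errors come from the F statistic, and log2 CPM has a prior count of 2. DESeq2 1.42.0, limma 3.58.1 (voom), other scaling, other filters, a prefix term and left-out libraries were alternatives. Gene positions and exon lengths came from GENCODE M21, and promoters from RefSeq; Fam83h and Wdr72 had no entry matched there. The fit was tested on simulated counts of Het and WT. It recovered 46.3% of genes changed 1.5-fold, 80.6% of those changed 2-fold and 98.5% of those changed 4-fold. Of its 158 calls there, 8 were unchanged genes. The genes, lists, and tests were chosen with earlier results of these data known. Named genes are the 6, up to 3 called genes or the 2 of smallest p in each related list, the 3 nearest genes of each of the 6 among symbols not of the Gm or Rik form, and stage markers; the overlapping Rik genes and the Acp4 and Relt ratio were added after values were seen.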

Additional observations from a re-analysis of the deposited data

Results flagged for a closer look

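In 12 groups of libraries (6 genes in 2 genotypes), the lowest or highest library was compared with its neighbours by Dixon's ratio of gap to range. WT 4-4 stood apart from the other WT libraries in Fam20a, at a log2 CPM of 5.33, and in Relt, at a log2 CPM of 4.95. Both only just passed the critical ratio of 0.526, at 0.535 for Fam20a and 0.528 for Relt. Acp4 in WT 4-4 did not pass, at 0.493. Chance flags about 1 in 20 such groups, and Fam20a and Relt were correlated (r = 0.65), so their flags are not independent. Without WT 4-4 the log2 fold change, Het over WT, was 0.04 for Fam20a, -0.26 for Relt and -0.21 for Acp4, and none passed the threshold.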

How the results depend on the processing

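None of the 6 genes passed the threshold under any of 26 alternatives each. The sign reversed for Wdr72 without Het 4-2 (log2 fold change 0.082, and -0.326 without Het 5-6), for Fam20a without prefix 4 (-0.045) and Fam20c without prefix 4 (-0.0094), and, among related genes, for Mepe (0.062) when Het 1-2 and WT 1-4, highest in muscle markers within their genotypes, were left out, a setting chosen after seeing the data. The count of genes called over the series, 14, was 27 with no filter, 25 at 1 CPM, 74 with DESeq2, 30 with a prefix term, 2 without Het 1-2 and WT 1-4, and 0, 1 and 2 without prefix 1, 4 and 5; without prefix 1, 731 genes had an unadjusted p under 0.05 by edgeR, and other tools were not run there. Leaving out 1 library gave 6 to 22 calls: 8, 6, 7 and 6 without Het 1-2, 4-2, 5-5 and 5-6, 8 and 9 without WT 1-1 and 1-4, and 22 without WT 5-1. The 992 prefix calls became 1866 with no filter and 1 in WT libraries alone, and 280 to 1466 with 1 library left out (400, 464 and 404 without Het 4-2, 4-5 and 5-5, 280 and 476 without WT 5-1 and 5-3). The cause of these shifts was not tested. No paired analysis was possible because the columns carry no replicate numbers of the labels. The prefix, whose meaning is not stated, was fitted as a term (above), not as a pairing. Depth limits Fam83h most, at 123 counts in its lowest library.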
